A study of Mus musculus with 12 samples.

Results

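The growth hormone response of Stat5-null mouse embryonic fibroblasts (MEFs) that had been given STAT5A was set against the response of the Stat5-null cells themselves. Of the 12 arrays in the series, 8 belong to this comparison, with 2 in each of 4 groups. Group 1, S5 with growth hormone, holds Stat5-null MEFs that carry a STAT5A vector delivered by retrovirus and were stimulated with growth hormone for 120 minutes. Group 2, S5, holds the same kind of cells without stimulation. Groups 3 and 4, KO with growth hormone and KO, hold Stat5-null MEFs with and without the same stimulation. All MEFs are labelled as C57BL/6, and the 4 wild-type (WT) arrays, 2 with the hormone and 2 without, served as separate measurements. A Stat5-null line with an empty vector was not analysed here, so STAT5A, the infection and the history of the infected culture cannot be told apart. The duplicates are described as biological, but nothing says how they were grown, so p-values measure the spread between these samples, which may be technical.

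Growth hormone binds its receptor and activates the kinase JAK2, which phosphorylates STAT5A and STAT5B. The phosphorylated STAT5 proteins pair, enter the nucleus and bind DNA at the sequence TTCNNNGAA. Well-known STAT5 target genes encode the feedback inhibitors CISH and SOCS2, which act at cytokine receptors. In fibroblasts growth hormone can also reach genes through other routes, such as MAP kinases and STAT3.

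Each value is a log2 array signal, and each gene is read from its brightest probe set, by the mean of the 12 arrays. The quantity followed here is the hormone response of S5 MEFs minus the hormone response of KO MEFs. It is positive when S5 cells rose more, or fell less, than KO cells. A gene passed when limma's moderated test gave a Benjamini-Hochberg adjusted p under 0.05 over 18194 genes. Signals under 4 lie in a low mode that holds probe sets with little or no signal. A fold that involves such a level was therefore computed with every array value under 4 set to 4, and is written as "at least".

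Promoter sequence is shown for 4 genes whose response differed and whose start carries the STAT5 motif, because they include the best-known feedback gene of the pathway and the repressor that moved the opposite way. The windows come from RefSeq on GRCm38.p6 and run from 250 bases before to 50 bases after an annotated transcript start, 5′ to 3′ on the gene's strand. Capitals mark TTCNNNGAA, which reads the same on both strands. The Cish window is chr9:107296409-107296708 on the plus strand, and its motifs TTCCTGGAA and TTCTTGGAA begin at bases 1 and 12, where bases after the start are counted from 1 and those before it have a minus sign. The Socs3 window is chr11:117969317-117969616 on the minus strand, with TTCTTAGAA from base −154. In the Steap4 window, chr5:7960222-7960521 on the plus strand, TTCCCGGAA begins at base −116. Bcl6 has windows for 2 starts on the minus strand. The upstream one, chr16:23988803-23989102, holds TTCTCAGAA from base −118. The other, chr16:23981234-23981533, holds TTCCTGGAA, TTCTGTGAA and TTCCGGGAA, which begin at bases −168, −122 and −88.
Cish: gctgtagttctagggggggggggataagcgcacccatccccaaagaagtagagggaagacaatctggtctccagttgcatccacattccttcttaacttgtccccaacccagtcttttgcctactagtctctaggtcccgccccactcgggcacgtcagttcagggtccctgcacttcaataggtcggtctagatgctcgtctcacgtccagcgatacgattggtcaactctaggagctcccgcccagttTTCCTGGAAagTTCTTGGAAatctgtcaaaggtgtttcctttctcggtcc
Socs3: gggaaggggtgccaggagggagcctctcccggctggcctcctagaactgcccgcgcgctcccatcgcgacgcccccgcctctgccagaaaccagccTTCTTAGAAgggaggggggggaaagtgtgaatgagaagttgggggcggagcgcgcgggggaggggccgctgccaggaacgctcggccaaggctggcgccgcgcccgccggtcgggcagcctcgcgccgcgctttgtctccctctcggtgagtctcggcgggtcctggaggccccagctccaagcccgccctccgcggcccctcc
Steap4: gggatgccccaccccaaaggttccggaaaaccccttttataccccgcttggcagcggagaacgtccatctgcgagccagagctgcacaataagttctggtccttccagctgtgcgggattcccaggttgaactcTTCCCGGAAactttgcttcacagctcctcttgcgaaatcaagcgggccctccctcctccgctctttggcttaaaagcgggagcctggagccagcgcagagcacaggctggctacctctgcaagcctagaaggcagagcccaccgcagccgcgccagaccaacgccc
Bcl6 (upstream start): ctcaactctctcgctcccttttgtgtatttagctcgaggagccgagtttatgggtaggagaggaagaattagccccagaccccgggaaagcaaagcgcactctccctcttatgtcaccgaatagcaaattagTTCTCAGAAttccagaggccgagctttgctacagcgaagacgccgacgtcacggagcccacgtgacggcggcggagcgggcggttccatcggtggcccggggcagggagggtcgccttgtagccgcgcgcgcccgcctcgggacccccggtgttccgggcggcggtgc
Bcl6 (downstream start): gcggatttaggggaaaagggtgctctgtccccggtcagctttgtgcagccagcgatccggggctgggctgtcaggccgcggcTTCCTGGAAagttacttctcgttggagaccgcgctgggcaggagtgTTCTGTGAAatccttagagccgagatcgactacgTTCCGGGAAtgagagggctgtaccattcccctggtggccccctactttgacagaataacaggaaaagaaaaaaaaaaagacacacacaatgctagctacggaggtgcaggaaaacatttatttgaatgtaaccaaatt

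Over all genes that passed and could be matched, TTCNNNGAA was present in 15 of 105 windows (14.3%) of genes with the higher response in S5 MEFs. It was present in 11 of 98 windows (11.2%) of genes with the lower response, and in 1305 of 18109 windows (7.21%) of all tested genes. Some genes have overlapping windows, and 1 site of Pde8b, a gene named after its values were seen, was counted in 3 of them. By gene, the motif was present for 15 of 91 (16.5%) with the higher and 8 of 65 (12.3%) with the lower response, and for 1239 of 14452 (8.57%) of all genes with a window. Windows with at least 2 such matches made up 3.81%, 1.02% and 0.37% of these sets. The AP-1 motif TGANTCA was found in 6.67%, 3.06% and 6.38% of the same windows, and the kB motif GGAANNNCC, searched on both strands, in 21.0%, 19.4% and 20.3%. These 3 motifs can overlap one another, and a match is a description of the letters only. Windows were at hand for 91 of the 117 genes with the higher response and for 65 of the 88 with the lower one.

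The responses differed for 205 of 18194 genes (1.13%). The response was higher in S5 than in KO MEFs for 117 genes (0.643%) and lower for 88 (0.484%). An unadjusted p under 0.05 was reached by 1775 genes (9.76%). The median difference was 1.86 on the log2 scale among the higher genes and −1.03 among the lower genes, and −0.004 over all genes. These medians describe genes that were picked by the same test. On their own, the S5 MEFs had a response that passed in 1433 genes (7.88%), with 660 higher (3.63%) and 773 lower (4.25%). KO MEFs had one in 56 genes (0.308%), with 41 higher (0.225%) and 15 lower (0.0824%). Of the 205 genes, 188 had a response that passed in S5 MEFs and 14 had one that passed in KO MEFs. Of the genes with the higher difference, 107 passed only in S5, 6 only in KO, 3 in both and 1 in neither. Of those with the lower difference, 78 passed only in S5, 5 only in KO and 5 in neither.

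**Figure D1:**
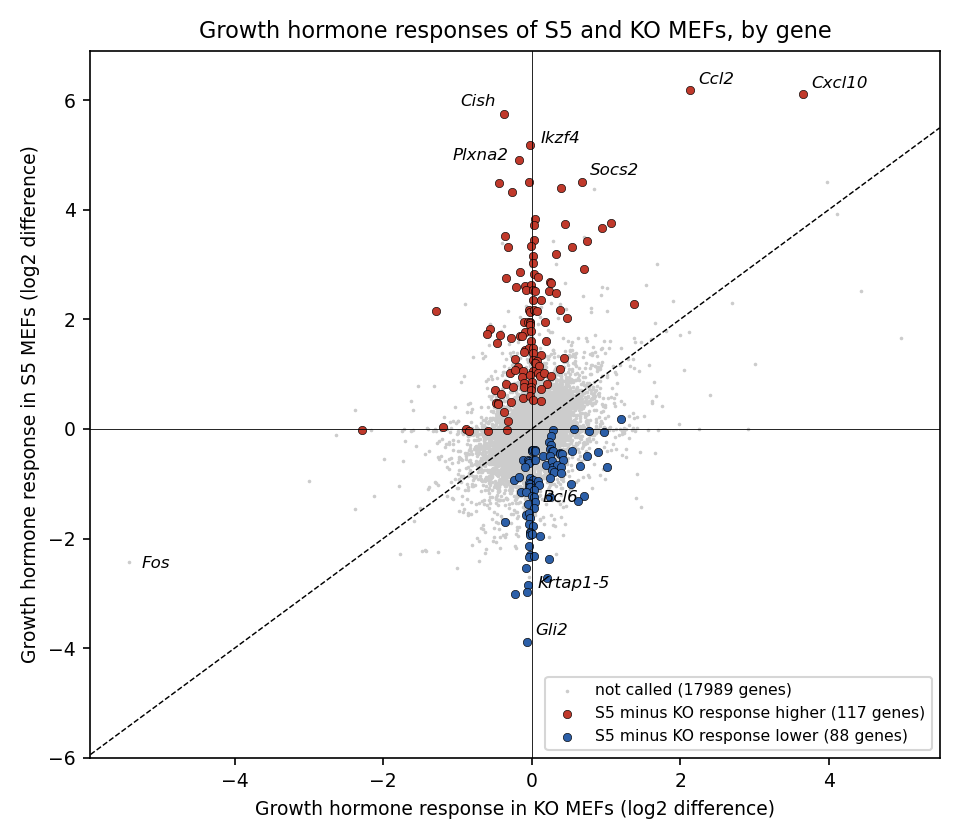
Growth hormone response in S5 MEFs (vertical) against the response in KO MEFs (horizontal), both as log2 differences of treated minus untreated means of 2 arrays, for 18194 genes. Coloured points are the 117 genes with a higher and the 88 with a lower response in S5 than in KO MEFs, and the dashed line marks equal responses. Most coloured points lie near 0 on the KO axis, while Ccl2 and Cxcl10 are far to the right.

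Cish, which encodes an SH2 protein that binds activated cytokine receptors, had the largest difference of the 205 genes. Its log2 signal was 9.33 and 9.17 in S5 MEFs with the hormone, 3.45 and 3.55 in untreated S5 MEFs, 4.32 and 4.69 in KO MEFs with the hormone, and 4.99 and 4.76 in untreated KO MEFs. The hormone-treated S5 arrays were far above the other 6, and untreated S5 was below untreated KO. The responses differed by 6.11 (95% interval 5.59 to 6.64, adjusted p = 4.53e-05). In S5 MEFs Cish rose at least 38.1-fold, while the KO difference of −0.37 did not pass (adjusted p = 0.51). The S5 minus KO gap was 4.75 with the hormone and −1.37 without it, so both levels entered the result. With values under 4 set to 4 the difference in response was 5.62.

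Socs2 encodes a SOCS-box protein known for restraining growth hormone signalling. It had 13.22 and 13.64 in S5 MEFs with the hormone, 8.88 and 8.96 in untreated S5 MEFs, 5.28 and 5.40 in KO MEFs with the hormone, and 4.69 and 4.64 in untreated KO MEFs. No arrays of different groups overlapped, and both S5 groups were above both KO groups. The rise was 22.8-fold in S5 MEFs, and the KO difference of 0.67 did not pass (adjusted p = 0.1). Its S5 minus KO response was 3.84 (95% interval 3.42 to 4.25, adjusted p = 0.000162). With the hormone S5 MEFs had 273-fold more Socs2 signal than KO MEFs, and without it they already had 19.1-fold more. Of its 5 other probe sets, 3 had differences of 6.18, 5.16 and 3.48, while 2 had 0.84 and 0.03.

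Socs3, a feedback inhibitor of gp130 and related receptors, had 11.88 and 11.36 in S5 MEFs with the hormone, 8.77 and 9.41 in untreated S5 MEFs, 8.78 and 9.41 in KO MEFs with the hormone, and 9.15 and 9.20 in untreated KO MEFs. Only the hormone-treated S5 arrays stood apart. The difference of 2.61 (SE 0.42, adjusted p = 0.0377) came from the treated level, where S5 exceeded KO by 2.52, while the untreated levels differed by −0.08 (adjusted p = 0.88). This call was lost without the first S5 array (adjusted p = 0.0913), the first S5 array with hormone (0.0935), the first KO array with hormone (0.0754), and the first or second untreated KO array (0.105 and 0.12). The Socs3 call was also lost in a fit of the 8 arrays alone (adjusted p = 0.126), with a replicate block and with array weights. Of the 8 measured SOCS genes, Cish, Socs2 and Socs3 passed, all with the higher response, against 0.643% of all genes.

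Bcl6, a zinc finger repressor that is known to compete with STAT5 for similar DNA sites, moved in the opposite direction. It had 11.08 and 10.83 in S5 MEFs with the hormone, 12.11 and 12.23 in untreated S5 MEFs, 12.28 and 12.26 in KO MEFs with the hormone, and 12.16 and 12.37 in untreated KO MEFs. The treated S5 arrays were the lowest 2 of 8, and the other 6 overlapped. The difference in response was −1.22 (SE 0.14, adjusted p = 0.0111), and Bcl6 fell by 1.22 in S5 MEFs against a KO difference of 0.00. With hormone S5 was 2.5-fold below KO, while without it the levels differed by −0.10 (adjusted p = 0.57). In a fit of the 8 arrays alone the adjusted p was 0.0616, and with the mean over its probe sets, of which the other lies in the low mode, it was 0.255.

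**Figure D2:**
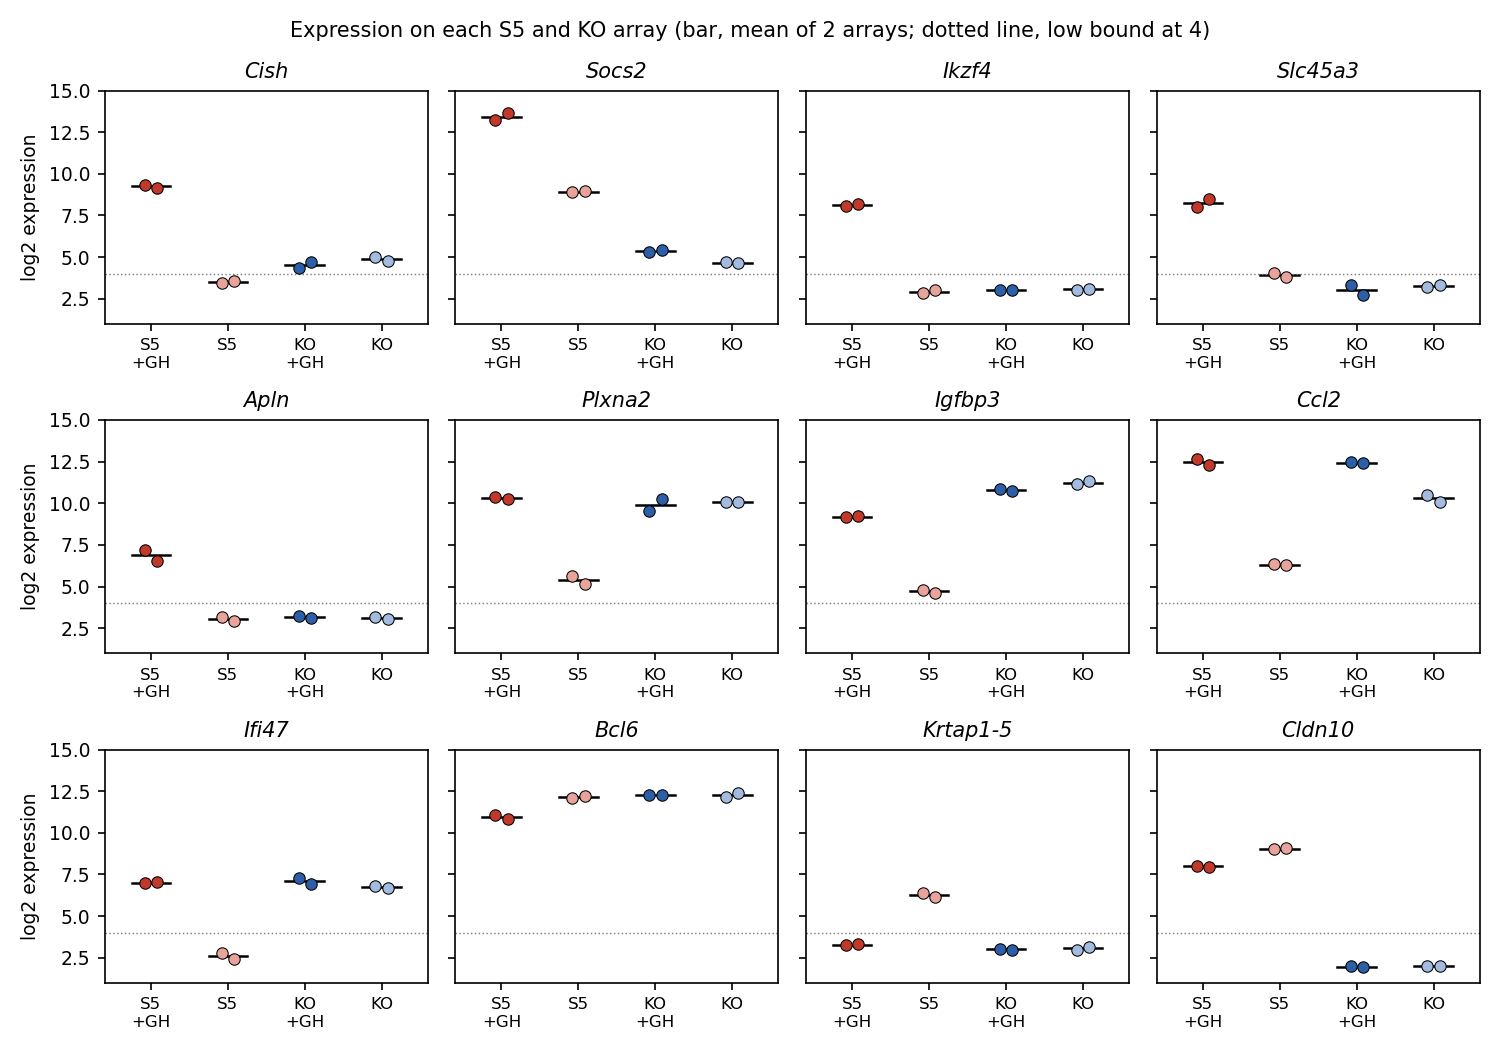
Log2 signal (vertical) of 12 genes on each of the 8 arrays, in the groups S5 with growth hormone, S5, KO with growth hormone and KO, with a bar at each mean of 2 arrays and a dotted line at 4. Cish, Socs2, Ikzf4, Slc45a3 and Apln stand high on the hormone-treated S5 arrays, Plxna2, Igfbp3, Ccl2 and Ifi47 stand low on the untreated S5 arrays, Bcl6 is lower on treated S5 arrays, Krtap1-5 is high on untreated S5 arrays, and Cldn10 is above the line in S5 alone.

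Of the 27 measured genes listed as STAT5 and growth hormone targets, 4 passed with the higher response (Cish, Socs2, Socs3 and Igfbp3) and 1 with the lower one (Bcl6). Over all genes these shares were 0.643% and 0.484%. The list's median difference was 0.099, against −0.004 over all genes, and 6 of the 27 were in the low mode in all 4 groups. Igf1, the main growth factor induced by growth hormone in liver, did not pass. It had 7.62 and 7.41 in S5 MEFs with the hormone, 6.71 and 6.82 in untreated S5 MEFs, 9.81 and 10.52 in KO MEFs with the hormone, and 10.73 and 10.19 in untreated KO MEFs. The difference of 1.05 had an SE of 0.38 and an adjusted p of 0.392. Of its 3 other probe sets, 1 (7.18 in S5 MEFs with the hormone, 6.59 in untreated S5 MEFs, 9.98 in KO MEFs with the hormone and 10.53 in untreated KO MEFs, group means) passed with a difference of 1.14 (adjusted p = 0.0459 over all tested probe sets). The other two gave 1.26 and 1.52 and did not pass. The growth hormone receptor gene Ghr differed by 0.06 and Jak2 by −0.08, neither of which passed. The probe sets read for Stat5a and Stat5b were in the low mode in all 4 groups and rose above it only among the WT arrays. They thus gave no usable signal in S5 or KO MEFs, and they did not register the vector.

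Whether S5 and KO MEFs differed with the hormone, without it or in both states was read from limma's contrasts at each level. S5 and KO MEFs differed widely in general, with 5256 genes past the threshold with hormone (28.9%) and 4989 without (27.4%). Of the 205 genes, 50 differed only with hormone, 31 only without, and 124 in both states. Among the 117 higher genes these counts were 41, 16 and 60, and among the 88 lower genes they were 9, 15 and 64. Of the 124 genes that differed in both states, the gap was wider with hormone in 55, narrower in 51, and changed sign in 18. By size alone, the gap was larger with hormone for 72 of the 117 higher genes and for 44 of the 88 lower genes. The count of 50 became 33 without the first or the second untreated S5 array or the first untreated KO array, 91 without the second treated S5 array, and 79 without the first treated KO array. The count of 31 became 20 without the first treated S5 array, and the 88 lower genes became 45 and 57 without the second and the first untreated KO array.

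**Figure D3:**
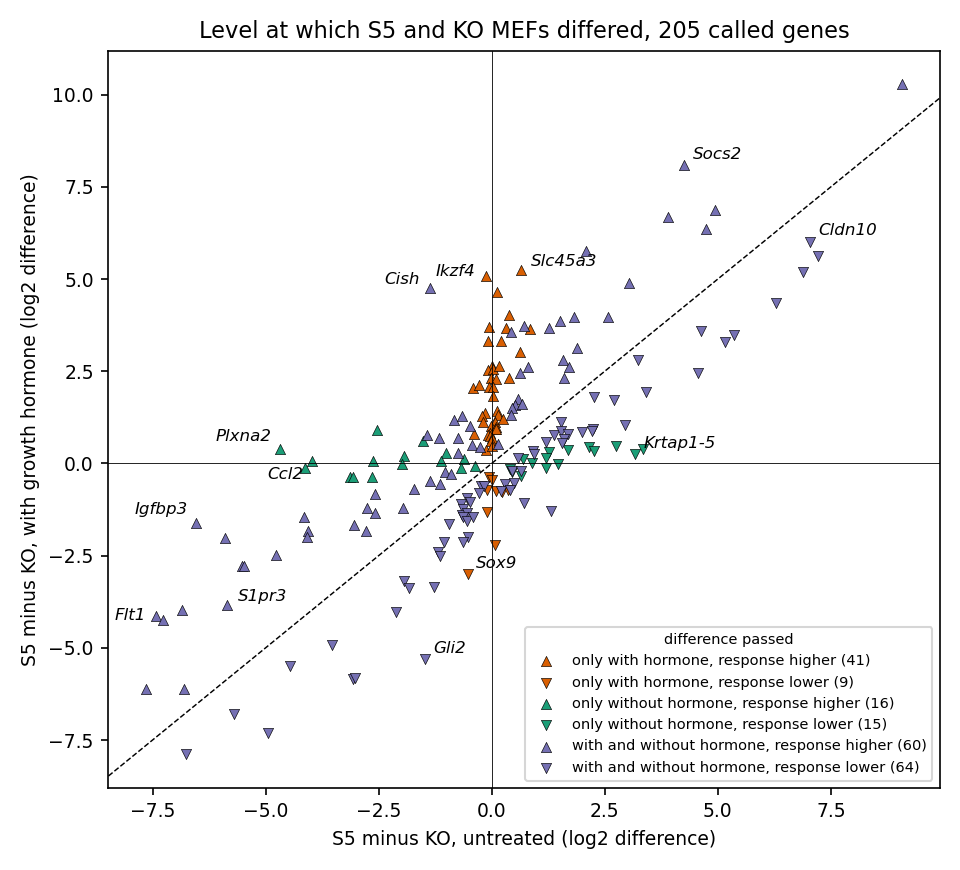
S5 minus KO log2 difference with growth hormone (vertical) against the same difference without it (horizontal) for the 205 genes. The 50 orange points passed only with hormone, the 31 green ones only without and the 124 purple ones in both states; upward triangles mark a higher and downward triangles a lower response in S5 MEFs, and the dashed line marks equal differences.

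A first set of genes was at or near the KO level without hormone and, of the S5 and KO groups, was high only in treated S5 MEFs. Ikzf4 encodes Eos, an Ikaros-family zinc finger factor known from regulatory T cells. Its signal was 8.05 and 8.16 in S5 MEFs with the hormone, 2.84 and 3.02 in untreated S5 MEFs, 3.05 and 3.02 in KO MEFs with the hormone, and 3.05 and 3.07 in untreated KO MEFs. All groups except treated S5 were in the low mode. Ikzf4 rose at least 17.2-fold in S5 MEFs, and its difference in response was 5.20 (SE 0.14, adjusted p = 1.03e-05). The untreated levels differed by −0.13 (adjusted p = 0.44).

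Slc45a3, a membrane transporter gene known as a prostate antigen in humans, had 8.01 and 8.52 in S5 MEFs with the hormone, 4.06 and 3.82 in untreated S5 MEFs, 3.31 and 2.74 in KO MEFs with the hormone, and 3.24 and 3.35 in untreated KO MEFs. Its difference was 4.59 (SE 0.30, adjusted p = 0.000826), with treated S5 at least 19.2-fold above treated KO. Apln encodes apelin, a secreted peptide that acts on a receptor of endothelial and heart cells. It had 7.22 and 6.55 in S5 MEFs with the hormone, 3.19 and 2.93 in untreated S5 MEFs, 3.22 and 3.14 in KO MEFs with the hormone, and 3.19 and 3.07 in untreated KO MEFs. Apln rose at least 7.39-fold in S5 MEFs, and the difference in response was 3.78 (SE 0.30, adjusted p = 0.00206). For both genes the treated S5 arrays were well above all others.

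Tent5c, which encodes a cytoplasmic poly(A) polymerase, had 7.34 and 8.18 in S5 MEFs with the hormone, 4.36 and 4.48 in untreated S5 MEFs, 4.21 and 3.98 in KO MEFs with the hormone, and 4.11 and 4.10 in untreated KO MEFs. The 2 treated S5 arrays differed more than in the other groups, and both were above all other arrays. Its difference was 3.35 (SE 0.37, adjusted p = 0.0104). Ccdc141, a coiled-coil protein gene, had a difference of 3.11 (adjusted p = 0.000826) and a treated S5 level 9.94-fold above treated KO. Steap4, a metalloreductase gene with 1 STAT motif in the window printed above, had 5.52 and 5.45 in S5 MEFs with the hormone, 2.80 and 2.82 in untreated S5 MEFs, 3.50 and 3.20 in KO MEFs with the hormone, and 2.99 and 3.20 in untreated KO MEFs. It rose at least 2.8-fold in S5 MEFs, and the difference was 2.42 (SE 0.23, adjusted p = 0.00475).

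Further genes of this kind were chosen after their values were seen, because their products act as transporters, hormones or hormone-activating enzymes. Mfsd2a, the transporter of lysophosphatidylcholine, had 7.19 and 6.25 in S5 MEFs with the hormone and lay between 2.07 and 2.23 on the other 6 arrays. Nppc, which encodes C-type natriuretic peptide, had 5.88 and 5.38 in S5 MEFs with the hormone and lay between 2.16 and 2.38 on the other 6. Dio2, the deiodinase that activates thyroid hormone, had 6.01 and 6.13 in S5 MEFs with the hormone, 3.12 and 2.72 in untreated S5 MEFs and 2.47 to 2.52 on the 4 KO arrays. All 3 genes were in the low mode in the other 3 groups, and there the untreated gap of Dio2 also passed (0.44, adjusted p = 0.0346). The differences in response were 4.54 for Mfsd2a (adjusted p = 0.0024), 3.40 for Nppc (0.000571) and 3.13 for Dio2 (0.000351), by limma. Psors1c2, a gene with 1 of the 6 smallest p among the higher genes, had only 4.77 and 4.72 in S5 MEFs with the hormone and 2.10 to 2.14 on the other 6 arrays, so its log2 difference of 2.63 became 0.74 once values under 4 were set to 4.

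In a second set the S5 and KO levels differed without the hormone and not beyond the threshold with it. Here untreated S5 MEFs were the lowest group among the genes named next, and treated S5 MEFs did not differ from treated KO MEFs beyond the threshold. Plxna2 encodes plexin-A2, a semaphorin receptor. It had 10.35 and 10.25 in S5 MEFs with the hormone, 5.65 and 5.15 in untreated S5 MEFs, 9.55 and 10.28 in KO MEFs with the hormone, and 10.09 and 10.08 in untreated KO MEFs. Its difference in response was 5.07 (95% interval 4.27 to 5.86, adjusted p = 0.0009). With the hormone the S5 and KO levels differed by 0.38 (adjusted p = 0.33), and without it S5 was 25.7-fold below KO. Of its 3 other probe sets, 2 had differences of 4.52 and 2.96 and 1 had −0.001.

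The monocyte chemokine gene Ccl2 had 12.68 and 12.33 in S5 MEFs with the hormone, 6.36 and 6.27 in untreated S5 MEFs, 12.45 and 12.40 in KO MEFs with the hormone, and 10.48 and 10.11 in untreated KO MEFs. Treated arrays of both genotypes overlapped, and untreated S5 was the lowest group. Ccl2 rose 72.7-fold in S5 MEFs and 4.4-fold in KO MEFs (adjusted p = 0.0042), so the KO cells also responded. The difference of 4.05 (95% interval 3.56 to 4.54, adjusted p = 0.000245) rested on the untreated level. With the hormone the S5 minus KO gap was 0.07 (adjusted p = 0.77), and without it S5 was 15.7-fold below KO. Ccl7, its neighbour on chromosome 11 and another monocyte chemokine, had the same pattern, with a difference of 2.69 (adjusted p = 0.00686), a treated gap of 0.06 and an untreated S5 level 6.17-fold below KO.

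Ifi47, an interferon-inducible GTPase gene, had 6.97 and 7.04 in S5 MEFs with the hormone, 2.77 and 2.44 in untreated S5 MEFs, 7.30 and 6.96 in KO MEFs with the hormone, and 6.79 and 6.66 in untreated KO MEFs. Only untreated S5 was in the low mode, at least 6.61-fold below untreated KO. Its difference in response was 3.999 (SE 0.27, adjusted p = 0.000915). Cdk6, the cyclin D-dependent kinase of G1 phase, had 10.52 and 10.63 in S5 MEFs with the hormone, 7.51 and 7.02 in untreated S5 MEFs, 10.98 and 10.88 in KO MEFs with the hormone, and 10.39 and 10.38 in untreated KO MEFs. It rose 9.96-fold in S5 MEFs, and its untreated level in S5 was 8.73-fold below KO. Its S5 minus KO response was 2.77 (adjusted p = 0.00218). Another Cdk6 probe set gave 3.88 (adjusted p = 7.69e-05 over all tested probe sets). There treated S5, at 7.54 and 7.54, stayed below treated KO, at 8.45 and 8.64, so the level pattern of Cdk6 depends on the probe set. Its remaining probe set was in the low mode. Kank4 was in the same set with a difference of 3.44 (adjusted p = 0.0141), which did not pass without the first untreated KO array (0.0522) or in a fit of the 8 arrays alone (0.0546).

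In another set S5 MEFs were below KO MEFs in both states, and the hormone narrowed the gap. Igfbp3 encodes the main carrier protein of insulin-like growth factors in blood. It had 9.16 and 9.23 in S5 MEFs with the hormone, 4.80 and 4.61 in untreated S5 MEFs, 10.86 and 10.74 in KO MEFs with the hormone, and 11.13 and 11.35 in untreated KO MEFs. No groups overlapped. Igfbp3 rose 22.4-fold in S5 MEFs, and the KO difference of −0.44 did not pass (adjusted p = 0.21). The difference in response was 4.93 (95% interval 4.55 to 5.31, adjusted p = 3.18e-05). S5 was 3.04-fold below KO with the hormone and 92.8-fold below it without the hormone, so Igfbp3 entered through a very low untreated S5 level.

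Flt1, the gene of vascular endothelial growth factor receptor 1, had 6.89 and 7.04 in S5 MEFs with the hormone, 3.19 and 3.26 in untreated S5 MEFs, 10.98 and 11.21 in KO MEFs with the hormone, and 10.71 and 10.57 in untreated KO MEFs. S5 was 17.6-fold below KO with the hormone and at least 99.8-fold below without it. The difference in response was 3.28 (SE 0.12, adjusted p = 4.53e-05), and another probe set, with S5 at 5.52 with the hormone and 2.56 without, gave 2.11 (adjusted p = 0.0726 over all tested probe sets). Its 2 remaining probe sets had both S5 groups in the low mode and cannot show an S5 response. Has2, the gene of hyaluronan synthase 2, had 5.74 and 5.43 in S5 MEFs with the hormone, 2.90 and 2.54 in untreated S5 MEFs, 9.86 and 9.81 in KO MEFs with the hormone, and 10.06 and 9.91 in untreated KO MEFs. Its difference was 3.02 (adjusted p = 0.0024). Vcam1, an adhesion molecule for leukocytes, had a difference of 2.24 (adjusted p = 0.00417) and was 3.53-fold below KO with the hormone and 16.6-fold below without it. S1pr3, a sphingosine 1-phosphate receptor gene, had 10.35 and 10.29 in S5 MEFs with the hormone, 8.34 and 8.39 in untreated S5 MEFs, 14.15 and 14.16 in KO MEFs with the hormone, and 14.20 and 14.22 in untreated KO MEFs. Its rise of 3.87-fold in S5 MEFs gave a difference of 2.01 (SE 0.05, adjusted p = 1.03e-05).

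Rsph3a, a radial spoke gene of motile cilia, belonged with Socs2 to the genes whose existing gap widened. It had 11.16 and 11.14 in S5 MEFs with the hormone, 7.61 and 7.25 in untreated S5 MEFs, 5.41 and 5.37 in KO MEFs with the hormone, and 5.23 and 5.48 in untreated KO MEFs. S5 exceeded KO by 54.3-fold with the hormone and by 4.22-fold without it, and the difference in response was 3.69 (SE 0.21, adjusted p = 0.000408). Plpp3, a lipid phosphate phosphatase gene, changed sign as Cish did. Its S5 minus KO gap was 1.29 with the hormone and −0.65 without it, and the difference in response was 1.94 (SE 0.07, adjusted p = 4.53e-05).

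Because the untreated difference enters the comparison with a minus sign, a low untreated S5 level by itself raises the difference in response. Untreated S5 was below untreated KO in 70 of the 117 higher genes, or 59.8%, against 60.9% of all genes. In 51 of the 117 (43.6%) that gap passed, against 11.9% of all genes. It was above untreated KO in 54 of the 88 lower genes (61.4%, against 39.1%), and in 49 of the 88 (55.7%, against 15.5%) that gap passed. The untreated WT level was nearer to KO than to S5 in 74 of the 117 higher genes (63.2%) and in 61 of the 88 lower genes (69.3%), shares near the 66.4% of all genes. These counts share the untreated arrays with the comparison itself and are given as descriptions.

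Of the 88 genes with the lower response in S5 MEFs, 24 (27.3%) were in the low mode in both KO groups, as were 31 (26.5%) of the 117 with the higher response and 39.7% of all genes. Krtap1-5, a hair keratin-associated protein gene, had the smallest adjusted p of these 88, together with Cldn10. It had 3.25 and 3.30 in S5 MEFs with the hormone, 6.37 and 6.12 in untreated S5 MEFs, 3.05 and 2.98 in KO MEFs with the hormone, and 2.99 and 3.16 in untreated KO MEFs. Only untreated S5 was above the low mode, at least 4.75-fold above untreated KO, and treated S5 was back in the low mode. S5 and KO responses differed by −2.91 (SE 0.14, adjusted p = 0.000207). Cldn10, a tight junction claudin gene, had 8.01 and 7.97 in S5 MEFs with the hormone, 9.01 and 9.08 in untreated S5 MEFs, and 1.95 to 2.02 on the 4 KO arrays. Its signal was above the low mode in S5 alone, and it was 2.08-fold lower in S5 MEFs with the hormone than without (log2 difference in response −1.03, adjusted p = 0.000207).

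Synpo, an actin-associated protein gene, had 11.33 and 11.44 in S5 MEFs with the hormone, 12.53 and 12.54 in untreated S5 MEFs, 12.91 and 12.98 in KO MEFs with the hormone, and 13.09 and 13.08 in untreated KO MEFs. S5 was below KO in both states, and the difference in response was −1.01 (SE 0.07, adjusted p = 0.000915). Lratd2 had 5.40 and 5.52 in S5 MEFs with the hormone, 7.24 and 7.59 in untreated S5 MEFs, 8.80 and 8.82 in KO MEFs with the hormone, and 8.69 and 8.71 in untreated KO MEFs. Its S5 level was 10.2-fold below KO with the hormone and 2.43-fold below without it, and the difference was −2.06 (adjusted p = 0.00204). Arrb1, the gene of the receptor-desensitizing protein beta-arrestin 1, differed by −1.53 (SE 0.13, adjusted p = 0.00251).

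Of the 25 lists, that of Hedgehog, cartilage and patterning factors had the most genes with the lower response. Of its 35 measured genes, 5 passed with the lower response (Bcl11b, Sox9, Tbx2, Twist2 and Gli2) and 1 with the higher one (Msx1). Over all genes these shares were 0.484% and 0.643%. The list's median was −0.085, against −0.004 over all genes. The call of Tbx2 (difference −2.94, adjusted p = 0.0186) was lost without the first or second untreated S5 array (0.0546 and 0.0628), the first treated S5 array (0.0563) or the first or second untreated KO array (0.0622 and 0.0613). Twist2 (−1.03, 0.0319) was kept without the second untreated S5 array and lost without any other 1 of the 8 (0.0684 to 0.107). Bcl11b, a zinc finger factor of skin and T cells, had 5.33 and 6.16 in S5 MEFs with the hormone, 8.68 and 8.50 in untreated S5 MEFs, 11.54 and 11.61 in KO MEFs with the hormone, and 11.61 and 11.63 in untreated KO MEFs. S5 was 57.0-fold below KO with the hormone and 8.16-fold below without it. The difference in response was −2.80 (SE 0.32, adjusted p = 0.0117), and the adjusted p was 0.0697 in a fit of the 8 arrays alone.

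Sox9, the master factor of cartilage formation, had 5.73 and 6.17 in S5 MEFs with the hormone, 8.49 and 8.50 in untreated S5 MEFs, 8.95 and 8.94 in KO MEFs with the hormone, and 9.34 and 8.70 in untreated KO MEFs. The treated S5 arrays were the lowest, and S5 was 7.98-fold below KO with the hormone. The difference of −2.47 (SE 0.31, adjusted p = 0.0147) did not pass without the first or the second untreated S5 array (0.0504 and 0.051) or in a fit of the 8 arrays alone (0.0737). Gli2, a transcription factor of the Hedgehog pathway, had 3.69 and 5.26 in S5 MEFs with the hormone, 8.37 and 8.34 in untreated S5 MEFs, 9.70 and 9.85 in KO MEFs with the hormone, and 10.06 and 9.63 in untreated KO MEFs. Its difference of −3.81 (SE 0.65, adjusted p = 0.0483) passed without either treated S5 array. It did not pass without the first or second untreated S5 array (0.132 and 0.135), treated KO array (0.0969 and 0.11) or untreated KO array (0.1 and 0.146). Gli2 also did not pass in a fit of the 8 arrays alone (adjusted p = 0.143). Nor did it with a replicate block, array weights or quantile normalization. Its other probe set, with treated S5 in the low mode at 1.99 and 2.14, gave −3.04 (adjusted p = 0.00495 over all tested probe sets). In that test the probe set read here had an adjusted p of 0.0538. Msx1, a homeobox gene, had 12.78 and 12.75 in S5 MEFs with the hormone, 12.11 and 11.99 in untreated S5 MEFs, 2.52 and 2.44 in KO MEFs with the hormone, and 2.94 and 3.02 in untreated KO MEFs. Its difference of 1.21 (adjusted p = 0.0131) became 0.71 with values under 4 set to 4, and then did not pass (0.0609).

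Among 28 measured chemokine genes, 3 passed with the higher response (Ccl2, Cxcl10 and Ccl7) and none with the lower. Over all genes these shares were 0.643% and 0.484%. At an unadjusted p under 0.05 there were 4 and 5, against 9.76% of all genes in either direction. Cxcl10, an interferon-inducible chemokine, had 8.27 and 8.34 in S5 MEFs with the hormone, 2.30 and 2.08 in untreated S5 MEFs, 6.16 and 6.37 in KO MEFs with the hormone, and 2.81 and 2.42 in untreated KO MEFs. It rose in both genotypes, at least 19.8-fold in S5 and at least 4.8-fold in KO MEFs (adjusted p = 0.00016). The difference was 2.47 (SE 0.19, adjusted p = 0.00204), and it came from the treated level, where S5 was 4.12-fold above KO. Cxcl2, a neutrophil chemokine, had a difference of −3.31 that did not pass (adjusted p = 0.0612).

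No gene of the 18 measured NF-kB subunits, inhibitors and brakes passed in limma's test of the difference, and at an unadjusted p under 0.05 there were 4 higher and 0 lower. Within S5 MEFs 10 of these genes rose, against 3.63% of all genes, and within KO MEFs 4 rose, against 0.225%. The smallest adjusted p values of the list were those of Relb (1.32, adjusted p = 0.0695), Tnip2 (1.08, 0.0799) and Nfkbiz (1.65, 0.0924). Among 34 interferon response genes 2 passed (Ifi47 and Cxcl10), both higher, against 0.643% of all genes. Of 38 immediate early and MAPK feedback genes, none passed, with 5 higher and 3 lower at an unadjusted p under 0.05. Such a p was reached by 9.76% of all genes. Of 28 inflammatory cytokines, colony stimulating factors and adhesion molecules, 5 passed with the higher response, against 0.643% of all genes. They were Vcam1, Steap4, Csf1, Csf3 and Lta. Csf3 and Lta were in the low mode in all groups. Csf1, the macrophage growth factor, had a difference of 0.86 (adjusted p = 0.0427), which was lost on leaving out any of the 8 arrays except the first treated KO array (0.0553 to 0.136). Of its 3 other probe sets, all above the low mode, 1 gave 0.94 and 2 gave −0.10 and −0.24, and none passed.

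Of 30 growth hormone receptor and JAK-STAT genes, 2 passed, both lower, against 0.484% of all genes, and 1 of them was Stat3. It had 8.68 and 8.48 in S5 MEFs with the hormone, 9.13 and 9.01 in untreated S5 MEFs, 10.04 and 9.93 in KO MEFs with the hormone, and 9.76 and 9.71 in untreated KO MEFs. The difference was −0.74 (adjusted p = 0.0352), which was kept without the first treated S5 array and lost without any other 1 of the arrays (0.0537 to 0.117). The second was Pias1, a gene of a STAT inhibitor and SUMO ligase, with a difference of −0.56 (adjusted p = 0.0477) that was kept without the first treated KO array and lost without any other 1 of the arrays (0.0657 to 0.141). No gene passed among 18 p53 targets and CDK inhibitors, 25 stress genes, 21 hypoxia genes, 18 C/EBP and adipocyte genes, 16 smooth muscle genes, 19 cholesterol and fatty acid genes and 23 replication genes. At an unadjusted p under 0.05 these lists had, higher and lower in turn, 0 and 2, 1 and 1, 1 and 2, 1 and 1, 0 and 1, 2 and 3, and 0 and 2 genes. Over all genes 9.76% had such a p. In 6 further lists 1 gene each passed, against 1.13% of all genes in either direction. With the higher response these were Igfbp3 of 18 IGF axis genes, Has2 of 36 matrix genes, Flt1 of 12 endothelial markers and Fas of 21 BCL2 family, death receptor and PIM kinase genes. With the lower response they were Inhbb of 37 TGF-beta, BMP and Wnt genes and Trp63 of 11 epithelial markers. Leaving out 1 array ended the calls of Fas (without either untreated S5 array, the first treated S5, treated KO or untreated KO array, 0.0515 to 0.0857) and Trp63 (without the second untreated S5 or KO array, 0.0534 and 0.0593). It ended that of Inhbb without either untreated S5 array, either treated KO array or the second untreated KO array (0.0525 to 0.0772).

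**Figure D4:**
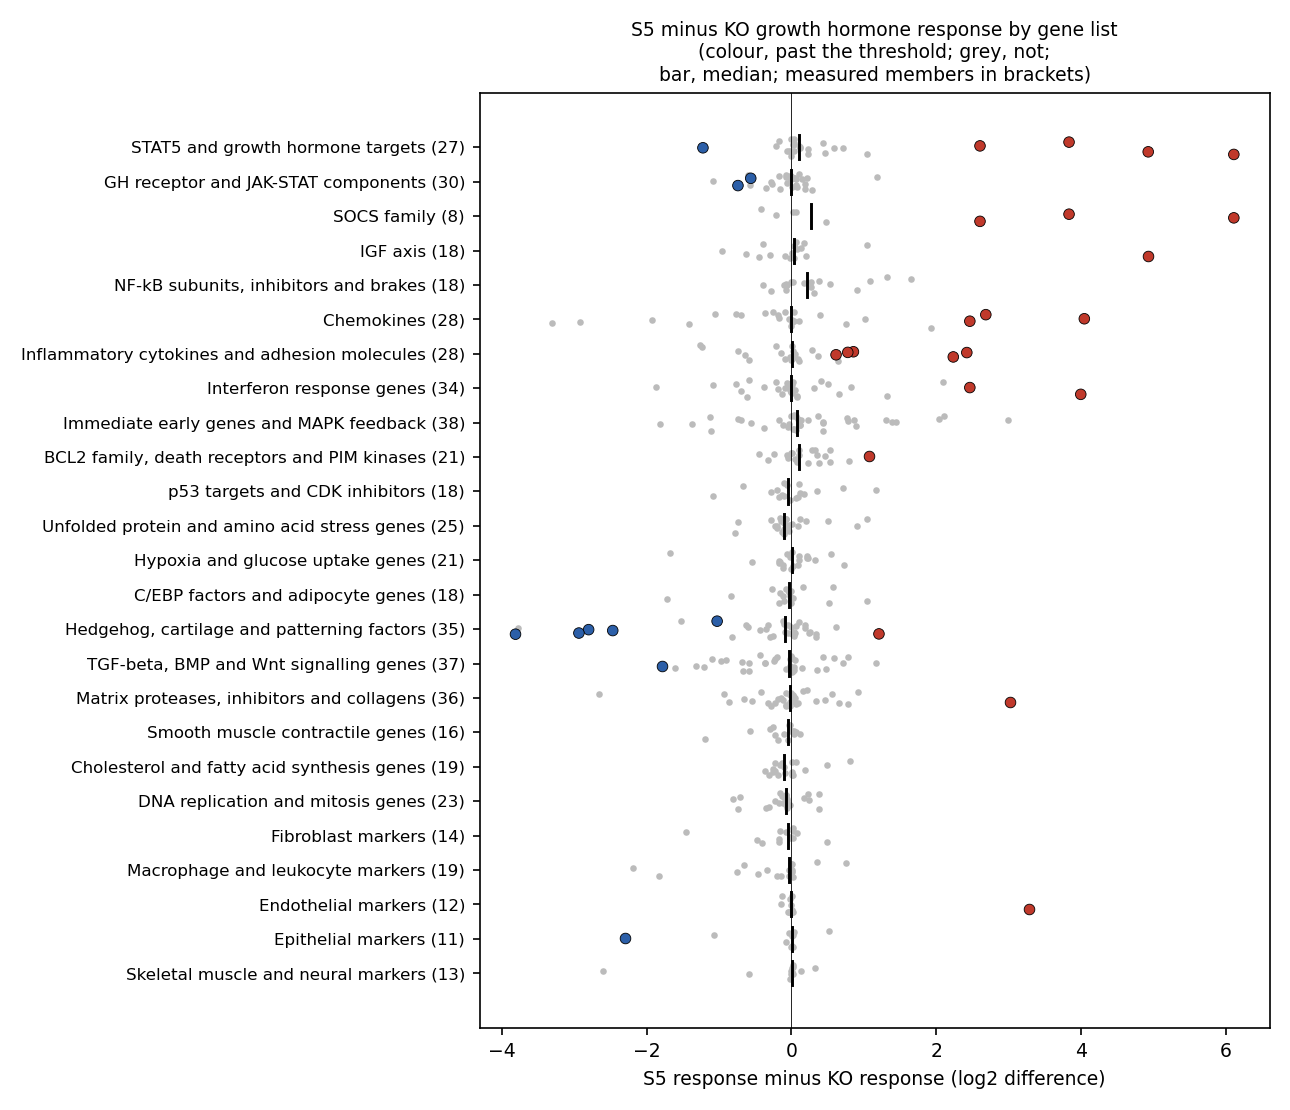
Response of S5 minus response of KO MEFs (log2 difference, horizontal) for each measured gene of 25 lists, with the number measured in brackets and a bar at the list's median. Coloured points passed the threshold, red with a higher and blue with a lower response, and the medians all lie between −0.102 and 0.269. A gene in several lists is drawn in each, as are Cish, Socs2, Socs3, Igfbp3 and Cxcl10, so points are not separate genes. Most points passing higher are in the SOCS, chemokine, cytokine or growth hormone target lists, while 5 patterning genes passed lower.

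A few genes passed because KO cells responded. Ptger3, a prostaglandin E2 receptor gene, was chosen after its values were seen. It had 2.43 and 2.45 in S5 MEFs with the hormone, 2.47 and 2.45 in untreated S5 MEFs, 2.59 and 3.05 in KO MEFs with the hormone, and 5.43 and 4.77 in untreated KO MEFs. Only untreated KO was above the low mode, and KO was at least 2.14-fold lower with the hormone than without. The difference of 2.26 (adjusted p = 0.0198) did not pass without the first or second untreated S5 array (0.0689 and 0.0674) or the first treated S5 array (0.0597).

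The WT arrays were not part of the S5 and KO contrast, although they share its estimate of the spread. Among the 117 genes with the higher response in S5 than KO, 33 (28.2%) also rose in WT MEFs, against 3.06% of all genes. Another 5 of the 117 (4.27%) fell, against 2.94% of all genes. Among the 88 genes with the lower response, 14 (15.9%) fell in WT MEFs, against 2.94% of all genes. Another 10 of the 88 (11.4%) rose, against 3.06% of all genes, so both shares were above those of all genes. In the low mode in all 4 S5 and KO groups were 37.4% of all genes. Of the higher genes 5.98% and of the lower genes 7.95% were, and the shares were not adjusted for this. With WT fitted on its own arrays and S5 and KO on theirs, 11 of 78 higher genes rose in WT (14.1%, against 0.857%), and 0 of 36 lower genes fell in limma's test (against 0.605%; 7 fell at an unadjusted p under 0.05). Leaving out any 1 of the 4 WT arrays kept the higher share between 22.2% and 23.9%, against 1.76% to 2.51% of all genes. It left 5 or 6 of the 88 lower genes falling (5.68% to 6.82%, against 1.25% to 2.05% of all genes), while 1 to 5 of them rose. The 41 higher genes that differed only with hormone included 13 that rose in WT, and the 16 that differed only without hormone included 4.

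The WT cells responded for Cish, with 8.22 and 8.07 with the hormone and 4.84 and 5.17 without it. They also responded for Socs2, with 11.44 and 11.42 against 7.14 and 7.28, and for Bcl6, with 10.74 and 10.71 against 12.56 and 12.64. The log2 WT responses were 3.14, 4.22 and −1.88. Other genes that rose in S5 MEFs did not pass in WT MEFs. For Slc45a3 the WT response was −0.08, for Apln −0.13 and for Ccdc141 −0.29, with no test past the threshold. Ikzf4 passed with a WT response of 0.70 (adjusted p = 0.0079), but within the low mode, at 3.67 and 3.83 with the hormone and 2.94 and 3.16 without. Igfbp3 was high in both WT groups, at 12.50 and 12.23 with the hormone and 12.15 and 12.16 without, and its WT response was 0.21. Plxna2 had 8.83 and 8.70 with the hormone and 8.40 and 8.38 without, so for both genes untreated WT was nearer to KO than to S5.

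**Figure D5:**
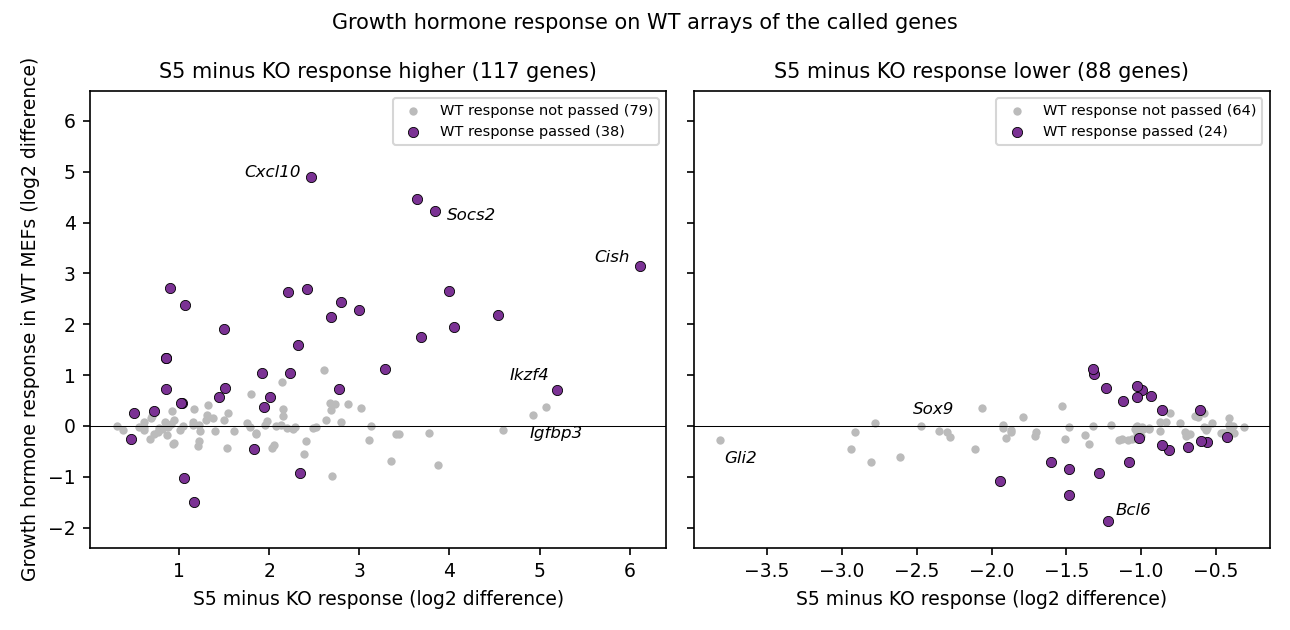
Growth hormone response of WT MEFs (vertical, log2 difference of 2 treated and 2 untreated arrays) against the S5 minus KO response (horizontal), for the 117 genes with a higher and the 88 with a lower S5 response. Purple points passed in WT MEFs; Cish, Socs2 and Cxcl10 are high in WT, Bcl6 is low, and Igfbp3, Gli2 and Sox9 lie near 0.

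Other measures also differed between S5 and KO MEFs. None of the 14 fibroblast markers was in the low mode on all 8 arrays. Thy1, a fibroblast surface glycoprotein, had 2.20 and 3.55 in S5 MEFs with the hormone, 5.09 and 3.53 in untreated S5 MEFs, 14.39 and 14.14 in KO MEFs with the hormone, and 14.26 and 14.23 in untreated KO MEFs. Fap, fibroblast activation protein, had 4.28 and 3.601 in S5 MEFs with the hormone, 4.04 and 3.46 in untreated S5 MEFs, 8.07 and 8.67 in KO MEFs with the hormone, and 8.62 and 8.70 in untreated KO MEFs. Without the hormone 6 of the 14 were lower and 1 higher in S5 than in KO MEFs past the threshold, and Loxl1, a matrix cross-linking enzyme gene, differed by −0.05. The mean log2 level of the 14 markers, which includes the wide gaps of Thy1 and Fap, ran from 10.69 to 10.75 in S5 MEFs with the hormone, 10.89 to 11.04 in untreated S5 MEFs, 12.36 to 12.40 in KO MEFs with the hormone, and 12.44 to 12.47 in untreated KO MEFs. None of them passed in the difference in response by limma, and 2 were lower at an unadjusted p under 0.05, as were 2 macrophage and 2 skeletal muscle and neural markers. Of 19 macrophage and leukocyte markers, 12 were in the low mode on all 8 arrays, and their mean was 3.12 to 3.16 in S5 MEFs with the hormone, 3.23 to 3.46 in untreated S5 MEFs, 4.004 to 4.16 in KO MEFs with the hormone, and 3.88 to 4.12 in untreated KO MEFs, against 8.77 to 10.46 on the 4 WT arrays. Of 12 endothelial, 11 epithelial and 13 skeletal muscle and neural markers, 9, 8 and 10 were in the low mode on all 8 arrays. Without the hormone, S5 was above KO in 1 and below it in 2 endothelial markers past the threshold, 1 and 2 epithelial markers, 1 and 1 skeletal muscle and neural markers, and 0 and 3 macrophage markers. Sox2, a neural stem cell factor, had 8.69 and 9.08 in S5 MEFs with the hormone, 9.29 and 9.60 in untreated S5 MEFs, and 2.29 to 2.35 on the 4 KO arrays. Krt19, an epithelial keratin, had 2.98 and 2.23 in S5 MEFs with the hormone, 3.12 and 2.95 in untreated S5 MEFs, 6.54 and 6.47 in KO MEFs with the hormone, and 6.17 and 5.56 in untreated KO MEFs. In bulk RNA, fewer cells of a type and less RNA per cell cannot be told apart. The Gapdh 3′ probe set exceeded the 5′ one, on the log2 scale, by 1.62 and 1.55 in S5 MEFs with the hormone, 1.47 and 1.44 in untreated S5 MEFs, 1.02 and 1.11 in KO MEFs with the hormone, and 0.94 and 1.10 in untreated KO MEFs. For Actb this 3′ excess was 3.09 to 3.15 in S5 MEFs with the hormone, 3.04 to 3.06 in untreated S5 MEFs, 2.71 to 3.07 in KO MEFs with the hormone and 2.996 to 3.07 in untreated KO MEFs, so untreated S5 and KO arrays overlapped. The part of the marker levels and of RNA quality in the differences above was not tested.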

How the data were processed

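Total RNA of each MEF sample was extracted with TRIzol, labelled with biotin and hybridised to Affymetrix expression arrays, per the labels' protocols. The authors deposited 1 value for each of 45101 probe sets and array, made with GCOS and RMA, per the submitters' processing notes (versions are not given in the sources used here). The deposited values run from 0.99 to 15.95 and were read as log2 signals. That scale comes from the values, since no label states it.

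Probe sets of controls (64), of several genes (932) and of no listed gene (9160) were left out. The other 34945 gave 18194 genes, each read from its brightest probe set on average (9009 genes had more than 1). Gapdh is measured only by control probe sets and was not tested. A mean was fitted to each of 6 groups in limma 3.58.1 (R 4.3.3) with eBayes (6 residual and 1.2 prior degrees of freedom), and adjusted p-values are Benjamini-Hochberg over all genes at 0.05, two-sided. The untreated and treated S5 minus KO contrasts of the same fit gave the level of each difference. Precision is limited by having 2 arrays in a group. The bound of 4 for the low mode was set after a look at the values. Alternatives were other scaling, low values raised to 4 or left out, fewer arrays, a replicate block, array weights, a trended prior and other probe sets.

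By rule the text may name 15 genes at each end of the difference in response, 6 of smallest p in each direction, 5 for each level pattern, 5 for each of 25 lists, and a fixed set of pathway genes. Where it names others, it says that this followed a look at their values. The comparison, its gene lists and these rules were chosen with earlier results of these data known. The test was also run on simulated arrays with independent noise and known changes in treated S5 MEFs only. Those arrays held no other difference between groups or cultures, so they cannot show how the test behaves where such differences exist.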

Additional observations from a re-analysis of the deposited data

Results flagged for a closer look

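The hormone responses of S5 and KO MEFs differed by limma's test of the difference itself in 205 genes, which are the subject of the text above. Probe sets that name no gene or several genes were not used there. Of 10092 such probe sets 108 passed limma's test, with p adjusted over 45037 probe sets. That share is near the 1.13% of genes that passed above (205 of 18194). The second Stat5a probe set, which the text does not use, had a mean log2 signal of 9.09 in S5 MEFs with the hormone, 9.88 in untreated S5 MEFs, 2.22 in KO MEFs with the hormone and 2.23 in untreated KO MEFs. The difference in response was −0.778 (SE 0.062, limma adjusted p = 0.00265 over all tested probe sets). In WT MEFs this probe set had 2.35 with the hormone and 2.24 without, in the low mode as in KO MEFs. It thus set S5 apart from WT as well as KO, and which Stat5a sequence it measures was not worked out.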

How the results depend on the processing

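The 205 genes became 114 in a fit of the 8 S5 and KO arrays alone (90 shared) and 358 probe sets when every probe set was tested. Over the arrays left out in turn the total ran from 155 to 263, and 83 of the 205 genes passed without any 1 of the 8 arrays. The higher genes numbered 227 with every probe set. The lower genes numbered 36 with 8 arrays, 55 with array weights, and 45 to 131 with 1 array left out. Genes that differed only with hormone numbered 121 with every probe set, 116 when the larger absolute difference set the level, and 33 to 91 with 1 array left out. Those that differed only without hormone numbered 15 with 8 arrays, 51 with values under 4 set to 4, 53 with every probe set, 89 by the larger absolute difference, and 20 to 39 with 1 array left out. With each array centred on its median, 108 were higher and 114 lower. The 47 genes with a WT response in the same direction became 11 with separate fits. On another probe set of the same gene the sign turned for Csf1 (−0.2362), Elavl2 (0.0101), Flt1 (−0.6722), Inhbb (0.0283), Pias1 (0.9117), Plxna2 (−8e-04), Rasgrf2 (0.0324), Rasgrp1 (0.0225), Sox9 (0.0071), Stat3 (0.0938) and Trp63 (0.01). Those probe sets were in the low mode in all 4 S5 and KO groups, except that of Csf1, which was above it, and that of Flt1, in the low mode in both S5 groups, so signs other than that of Csf1 carry no information on the S5 response. Over the 17 alternatives for genes, 55 genes passed wherever they were tested, 45 higher and 10 lower. The causes of these changes were not tested.

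With the replicate number as a replicate block, 180 genes passed, of which 156 were shared with the fit without it. Whether the numbers pair the samples is not known. Deviations of same-numbered arrays correlated between −0.363 and 0.197, which cannot settle it.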

Other observations

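Among the 205 genes, 5 pairs were next to each other on a chromosome, and both members of each pair had a difference in the same direction. Ccl2 and Ccl7 on chromosome 11 are the chemokine pair described above. Has2 was next to Sntb1 on chromosome 15, with differences of 3.02 and 2.39. On chromosome 6, Mpp6 and Gsdme had 1.54 and 1.76, and on chromosome 8, Pla2g15 and Slc7a6 had 1.51 and 0.72. Inhbb, the gene of an activin and inhibin subunit, lay next to Gli2 on chromosome 1, with differences of −1.79 and −3.81. Both of these calls were lost when 1 of several arrays was left out, as given above. The pairs were looked for after the 205 genes were known, and no number for chance was computed. Sntb1, Mpp6, Gsdme, Pla2g15 and Slc7a6 are named for their position, after their values were seen.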
